A study of Mus musculus with 26 samples.

Results

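Bulk RNA-seq was used to ask what loss of Dux does to mouse embryonic stem cells (mESCs) exposed to pladienolide B (PlaB). The comparison rests on 4 of the 26 libraries of the series, 2 labelled Dux KD PlaB and 2 labelled PlaB, chosen by their sample labels. All cells were of the R1 line, cultured on gelatin with LIF, the cytokine that keeps mESCs undifferentiated, and poly(A) RNA was sequenced. Both groups received 4 nM PlaB for 4 days. By genotype label they were Dux KD, meaning cells in which Dux was knocked down, and WT. The labels do not say which hairpin the sequenced knockdown cells carried. The control of PlaB was WT cells given DMSO, the solvent, with 2 libraries. Further groups of 2 libraries each were used where stated. These were untreated WT cells (ESC) and cells labelled SE KO (a super-enhancer knockout) with the same PlaB dose and time. Others were cells given 0.53 µM retinoic acid (RA) for 48 h with and without Dux KD, and cells that overexpressed Zscan4 (Zscan4 OE, with 4 µg/mL doxycycline for 24 h). The last were cells labelled Dux KD with Zscan4 OE. Their labels give no doxycycline dose and no time, and their treatment label reads "no". Dux KD cells without an inducer, and PlaB-treated cells with a control hairpin, were not among the groups, so that the knockdown and the handling that comes with it cannot be told apart. Nothing in the labels says that the replicates were separate cultures, and the p-values then measure only the spread between these libraries, which may be technical.

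PlaB is a splicing inhibitor that binds the SF3b complex, the part of the U2 small nuclear ribonucleoprotein that recognises the branch point of an intron. DUX is a double-homeobox transcription factor of placental mammals that is expressed at zygotic genome activation. In mESC cultures a rare subset of cells expresses Dux, turns on genes of the 2-cell embryo (the 2C genes, among them Zscan4, Tdpoz, Usp17l, Obox and Eif1a-like genes) and is called 2C-like. In these cells the OCT4, SOX2 and NANOG proteins are known to be low.

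Gene-assigned reads numbered 18617150 and 19471344 in PlaB, 17408880 and 17081870 in Dux KD PlaB, and 18772147 and 19453495 in DMSO. Levels are given as CPM (read counts relative to library size, scaled between libraries by TMM and expressed on the usual CPM scale), for replicate 1 and then replicate 2. In the PlaB and Dux KD PlaB libraries, 3 counts, the limit that a count of 0 allows, stand for 0.136 to 0.179 CPM. Replicates of a group were closer to each other than to the other group. The distance over all tested genes on the log2 CPM scale was 75.2 between the PlaB libraries and 63.8 between the Dux KD PlaB libraries, and 286 between the group means. Before any gene is considered, the Dux KD PlaB libraries stood apart from PlaB and close to cells that had no PlaB. Their distance to DMSO was 112 and to ESC 111, where DMSO and ESC were 125 apart. PlaB stood 306 from DMSO. No value in the table measures PlaB itself, so whether the drug acted to the same extent in the knockdown cells was not tested.

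The targeted gene was read first. Duxf3, the gene of the Dux cluster in this table, lies on the minus strand of chr10:58229979-58232675 and has a single exon. It had 191 and 181 counts in PlaB, 1 and 0 in Dux KD PlaB and 1 and 0 in DMSO. Its level of 9.25 and 8.21 CPM in PlaB was thus at least 49.0-fold higher than the 3-count floor of the knockdown libraries, which had the same counts as DMSO (log2 fold change -7.92 ± 0.68 SE, adjusted p = 7.1e-11, edgeR quasi-likelihood test, n = 2 per group as in every comparison here). Where Duxf3 was induced by RA, the knockdown libraries kept 0.918 and 0.353 CPM against 2.16 and 2.75. The gene belongs to an array of near-identical copies, and how reads that fit several copies were counted is not given in the sources used here. This holds also for the Zscan4, Usp17l, Tdpoz, Trim43, Obox, Prame and Eif1a-like families and for ribosomal protein and Gapdh pseudogenes, whose single-copy values are uncertain.

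The stem cell label was checked against its markers. The Dux KD PlaB libraries held 648 and 655 CPM of Pou5f1 (OCT4), 722 and 722 of Sox2 and 612 and 602 of Nanog. The PlaB libraries held 226 and 180 CPM of Pou5f1, 21.5 and 30.8 of Sox2 and 69.6 and 78.6 of Nanog. Not all ESC markers lay this way. Sall4, given below with the pluripotency genes, was lower in Dux KD PlaB than in PlaB. The 8 fibroblast markers summed to 9.78 and 12.5 CPM in PlaB, 26.6 and 28.4 in Dux KD PlaB and 35.0 and 34.1 in DMSO. Most of this was Thy1, and Lum and Twist2 had no read in any of these PlaB and Dux KD PlaB libraries.

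The promoters of 4 genes on which the results turn are shown, each from 250 bases before to 50 bases after the annotated start, 5′ to 3′ on the gene's strand (RefSeq, GRCm38.p6). Duxf3 and Gm4340 are shown since they were the only 2 of 30 2C genes with a window that contained GATTNAATC, a palindromic core of the sequence that DUX is known to bind. Capitals mark that core. Duxf3 lies at chr10:58233040-58233339 on the minus strand and Gm4340 at chr10:104193792-104194091 on the plus strand.

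Duxf3: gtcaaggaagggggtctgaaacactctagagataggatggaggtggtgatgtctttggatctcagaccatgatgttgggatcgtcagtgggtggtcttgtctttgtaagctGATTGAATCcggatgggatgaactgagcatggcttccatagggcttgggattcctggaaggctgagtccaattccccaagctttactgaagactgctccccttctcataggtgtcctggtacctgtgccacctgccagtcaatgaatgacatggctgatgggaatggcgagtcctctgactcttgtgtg
Gm4340: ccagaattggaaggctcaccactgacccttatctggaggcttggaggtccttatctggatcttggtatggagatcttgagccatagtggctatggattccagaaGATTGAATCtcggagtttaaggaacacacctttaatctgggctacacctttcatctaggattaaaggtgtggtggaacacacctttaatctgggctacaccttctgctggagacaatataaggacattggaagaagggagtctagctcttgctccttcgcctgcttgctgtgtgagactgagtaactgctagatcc

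Zscan4c (chr7:11005495-11005794, plus strand) and Zscan4d (chr7:11166099-11166398, minus strand), which had the highest levels of the family in PlaB, show how alike its copies are. Capitals mark their longest shared run, 55 bases.

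Zscan4c: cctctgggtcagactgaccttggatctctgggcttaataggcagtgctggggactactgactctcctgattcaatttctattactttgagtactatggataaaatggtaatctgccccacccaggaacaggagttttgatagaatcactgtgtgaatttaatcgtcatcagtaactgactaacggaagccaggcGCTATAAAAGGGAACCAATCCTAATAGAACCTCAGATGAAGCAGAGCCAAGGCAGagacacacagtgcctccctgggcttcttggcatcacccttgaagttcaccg
Zscan4d: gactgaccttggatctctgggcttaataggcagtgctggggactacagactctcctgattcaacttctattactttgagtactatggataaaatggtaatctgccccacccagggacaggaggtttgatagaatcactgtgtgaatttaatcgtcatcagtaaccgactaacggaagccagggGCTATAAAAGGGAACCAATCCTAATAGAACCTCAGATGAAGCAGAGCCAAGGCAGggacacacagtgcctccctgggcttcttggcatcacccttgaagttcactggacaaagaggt

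The core began 139 bases before the RefSeq start of Duxf3 and 146 bases before that of Gm4340. The RefSeq start of Duxf3 is not that of the gene counted, which lies downstream and wholly outside the window shown. Over all genes with a window, 83 of 27025 (0.307%) had it in at least 1 window. The share was 0.466% (16 of 3432) among genes lower in Dux KD PlaB than in PlaB, 0.111% (4 of 3613) among genes higher, and 0.237% (15 of 6319) among tested genes that were not called. Such a match is a description of these letters, not a binding site or a cause, and a window without it says nothing about DUX. The Zscan4c and Zscan4d windows agreed at 281 of 289 aligned bases (97.2%).

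Of 20953 genes tested, 5468 were higher and 6041 lower in Dux KD PlaB than in PlaB at an adjusted p under 0.05 and a change of at least 2-fold, the rule for every call here. That is 26.1% and 28.8% of the genes, 54.9% in all, and every count below from this comparison is to be read against these shares. The median log2 fold change of all tested genes was -0.14. In what follows a value with ± is a log2 fold change of Dux KD PlaB against PlaB with its SE, unless DMSO is named as the other group. Against DMSO, Dux KD PlaB was higher at 1577 genes (7.53%) and lower at 867 (4.14%), or 11.7% in all, with a median of 0.01. PlaB without the knockdown was higher than DMSO at 6759 genes (32.3%) and lower at 5572 (26.6%), or 58.9% in all, with a median of 0.22. Counts below from a comparison with DMSO are to be read against that comparison's own shares. These comparisons share libraries, and their values are set side by side below only to place the levels.

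The 2C genes were the group with the steepest fall. Of the 50 2C genes listed, 45 were tested, and 39 of these were lower and 1 higher in Dux KD PlaB than in PlaB. Their median log2 fold change was -7.06, or -6.15 with genes at or under 3 counts set to that floor. Together they made up 14900 and 14960 CPM in PlaB, 33.8 and 30.5 in Dux KD PlaB, 32.6 and 29.97 in DMSO, with 97.4 and 92.7 in untreated ESC. The knockdown libraries thus lay at the level of DMSO and under that of ESC. In bulk samples, fewer 2C-like cells and less RNA in each of them cannot be told apart.

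**Figure D1:**
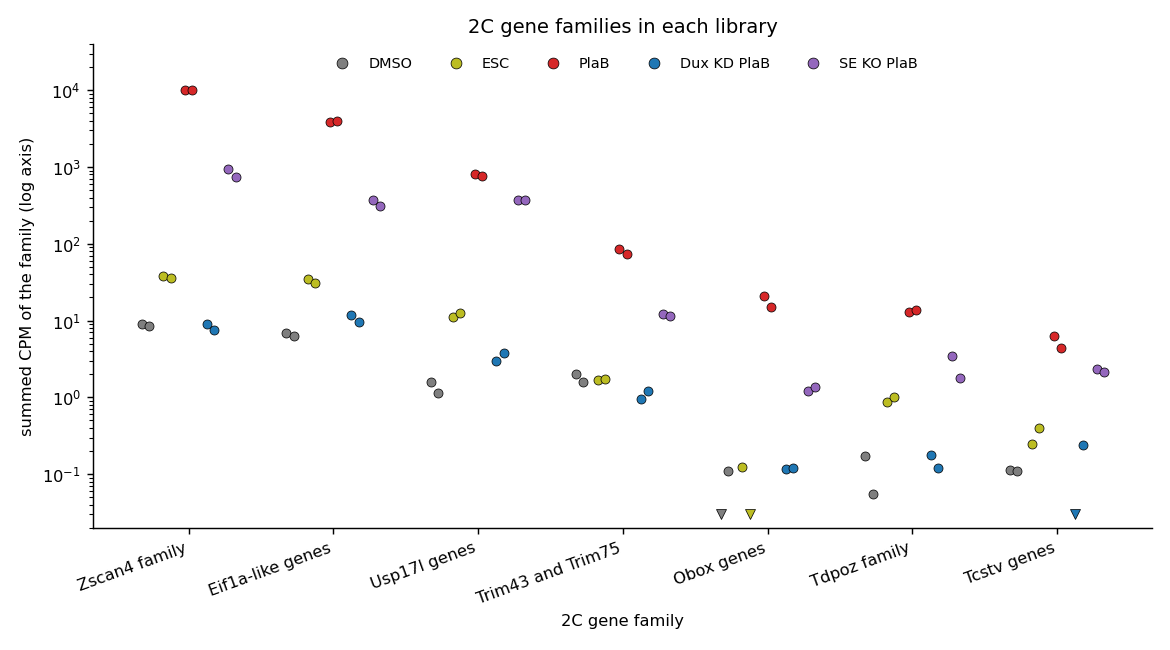
Summed CPM (log axis) of each 2C gene family, 1 point per library, for DMSO, ESC, PlaB, Dux KD PlaB and SE KO PlaB. A triangle at the lower edge stands for a sum of 0. The PlaB points lie above all others in each family, and SE KO PlaB lies between PlaB and Dux KD PlaB, as in the Zscan4 family (929.7 and 739.8 CPM).

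The Zscan4 genes encode zinc-finger proteins of the 2-cell embryo that act in telomere lengthening. All 6 were lower. Summed, they had 10010 and 9952 CPM in PlaB against 9.13 and 7.59 in Dux KD PlaB, where DMSO had 9.07 and 8.603. Zscan4f had 1103 and 911 CPM in PlaB against 1.24 and 0.657 in Dux KD PlaB (log2 fold change -10.04 ± 0.23 SE, adjusted p = 3.0e-23). Zscan4b had 271 and 302 CPM in PlaB against 0.295 and 0.359 in the knockdown (-9.75 ± 0.20, adjusted p = 4.6e-24). None of the 6 was called between Dux KD PlaB and DMSO by edgeR or by DESeq2, and none had an unadjusted p under 0.05 there.

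Among other transcription factors of the 2-cell stage, Obox6, an oocyte-type homeobox gene, had 19.9 and 14.38 CPM in PlaB against 0.118 and 0.119 in Dux KD PlaB, 2 counts in each. All 3 Obox genes tested were lower, of which 1 was called with DESeq2 and 2 without PlaB replicate 1, without Dux KD PlaB replicate 1 or without Dux KD PlaB replicate 2. Obox6 was called under each of these. Zfp352, a zinc-finger gene of the 2-cell embryo, had 115 and 86 counts in PlaB, 1 and 1 in Dux KD PlaB and 0 and 0 in DMSO, at least 26.6-fold lower with the knockdown. Sp110, which encodes a nuclear body protein, had 284 and 253 counts in PlaB against 0 and 3 in the knockdown, at least 70.8-fold lower. PlaB and Dux KD PlaB did not overlap at any of these genes, which was also so at 18215 of all 20953 tested genes.

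The Usp17l genes encode deubiquitinases, and all 5 were lower, with a median of -7.48. Usp17lb had 370.4 and 319 CPM in PlaB against 0.825 and 1.08 in Dux KD PlaB (-8.49 ± 0.18, adjusted p = 3.5e-23). Unlike Zscan4, part of this family stayed above DMSO. In sum the family had 3.005 and 3.766 CPM in Dux KD PlaB, under the 11.2 and 12.52 of untreated ESC. Usp17lb had 0.340 and 0.274 CPM in DMSO (1.61 ± 0.49, adjusted p = 0.012 for Dux KD PlaB against DMSO), and Usp17lc and Usp17la were also higher than in DMSO, by 1.94 and 1.27. Trim75, of the tripartite-motif ubiquitin ligases, had 80.9 and 67.6 CPM in PlaB against 0.0589 and 0.179 in Dux KD PlaB (-9.21 ± 0.33). Of the Trim43 and Trim75 genes, 3 of 4 were lower.

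The Eif1a-like genes are relatives of the translation initiation factor eIF1A that are transcribed in the 2-cell embryo. All 7 were lower, and their sum was 3827 and 4028 CPM in PlaB, 11.7 and 9.62 in Dux KD PlaB and 6.86 and 6.30 in DMSO. Untreated ESC had a sum of 34.48 and 30.51 CPM, above the knockdown libraries. Gm8300 had 1322 and 1314 CPM against 2.18 and 1.25 (-9.58 ± 0.25, adjusted p = 5.4e-22). Gm5662 had 1270 and 1308 against 4.95 and 3.41 CPM, and 2.04 and 1.48 in DMSO, so that it was lower than in PlaB (-8.27 ± 0.18) and higher than in DMSO (1.25 ± 0.28, adjusted p = 8.2e-04). Gm4340, whose promoter is shown above, had 135 and 323 CPM in PlaB, where the replicates were far apart, and 1.71 and 1.43 in Dux KD PlaB.

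Tdpoz genes encode proteins with a TRAF-like and a BTB/POZ domain. Of 9 in the table, 7 were tested and 3 were lower. Tdpoz3 had 177 and 199 counts in PlaB against 0 and 2 in Dux KD PlaB, at least 49.4-fold lower, and Tdpoz8 had 47 and 47 counts against 0 and 0, at least 12.4-fold lower. The other 4 tested members had at most 1 count in any of these 4 libraries, so that a difference was not detectable at this depth. All 3 Tcstv genes were lower. Their sum was 6.39 and 4.40 CPM in PlaB against 0 and 0.239 in Dux KD PlaB.

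Of 11 2C genes outside these families 10 were lower. Cpb2, a carboxypeptidase gene, had 239 and 176 counts in PlaB against 0 and 2 in Dux KD PlaB, at least 54.9-fold lower. Gpr63, a G protein-coupled receptor gene, was the only 2C gene called higher. It had 6 and 3 counts in PlaB, 12 and 7 in Dux KD PlaB and 16 and 11 in DMSO (1.39 ± 0.57, adjusted p = 0.03), a low count whose call ended without PlaB replicate 2 or Dux KD PlaB replicate 1 and under 4 other settings. Prame-like genes, a cluster family of leucine-rich repeat proteins, were not among the 2C lists. Of 12 listed, 9 were tested, and 7 were lower and 2 higher. Pramef25 had 67.5 and 64.5 CPM in PlaB, 0.236 and 0.418 in Dux KD PlaB and 0 and 0.274 in DMSO (-7.63 ± 0.25, adjusted p = 1.8e-19). Pramel7 had 10.6 and 9.25 CPM in PlaB and no count in the knockdown libraries, at least 55.8-fold lower.

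Genes that regulate Dux were listed as activators and as repressors. Dppa2 and Dppa4 encode partner proteins that bind and activate the Dux promoter. Dppa2 had 1327 and 1162 CPM in PlaB, 91.4 and 92.9 in Dux KD PlaB and 110.1 and 116 in DMSO (-3.75 ± 0.09, adjusted p = 5.9e-23). Dppa4 had 269.7 and 257 CPM in PlaB, 143 and 138 in Dux KD PlaB and 116 and 116 in DMSO and was not called (-0.91 ± 0.07), though it passed the fold limit with RLE scaling (-1.06). Nelfa, a subunit of the negative elongation factor NELF, fell from 405 and 397 to 73.0 and 72.1 CPM (-2.47 ± 0.09), near the 80.8 and 82.9 of DMSO. Smad7, an inhibitory SMAD, was higher, with 28.3 and 31.1 CPM in PlaB against 117 and 122 in the knockdown (2.01 ± 0.13). Thus 2 of 6 activators were lower (33.3%) and 1 was higher (16.7%). Beside 28.8% and 26.1% of all genes, 6 genes are too few to set the activators apart.

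Of 25 repressors of Dux or of the 2C program, 13 were higher and 1 lower in Dux KD PlaB than in PlaB, with a median of 1.11. None was called between Dux KD PlaB and DMSO by edgeR or by DESeq2, though 13 had an unadjusted p under 0.05 there with changes under 2-fold. Ehmt2, which encodes the H3K9 methyltransferase G9a, had 11.4 and 10.5 CPM in PlaB, 98.1 and 113 in Dux KD PlaB and 163 and 169 in DMSO (3.27 ± 0.12, adjusted p = 3.6e-19). Trim28 (KAP1), the corepressor of zinc-finger proteins, had 208 and 204 CPM in PlaB, 1353 and 1359 in Dux KD PlaB and 1498 and 1512 in DMSO (2.72 ± 0.11). Kdm1a (LSD1), a histone demethylase, had 78.4 and 76.1 CPM in PlaB, 489 and 476 in Dux KD PlaB and 393 and 399 in DMSO (2.64 ± 0.09). The knockdown libraries lay above both PlaB libraries and nearer to DMSO at all 3 genes. Smchd1, a chromatin protein known for X inactivation, was higher by 2.17 ± 0.10.

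Of 25 core and naive pluripotency genes, 13 were higher, 2 lower and 10 not called, with a median of 1.02. Sox2 had 21.5 and 30.8 CPM in PlaB, 722 and 722 in Dux KD PlaB and 594 and 590.1 in DMSO (4.78 ± 0.13, adjusted p = 8.8e-22). Fgf4, a target of OCT4 and SOX2 that encodes a growth factor, had 4.45 and 7.03 CPM in PlaB, 198 and 193 in Dux KD PlaB and 321 and 310.4 in DMSO (5.08 ± 0.13). Both knockdown libraries lay far above the PlaB libraries at these genes. Klf2 and Nr5a2, both naive-state transcription factors, were higher by 4.44 ± 0.14 and 4.10 ± 0.08. Pou5f1 moved least of the 3 core factors, from 226 and 180 to 648 and 655 CPM (1.68 ± 0.10, adjusted p = 2.5e-14), and Nanog was higher by 3.03 ± 0.08. The 2 members that fell were Dppa3 (Stella, a maternal factor), with 11.9 and 10.8 CPM in PlaB against 1.35 and 1.08 in the knockdown (-3.22 ± 0.32), and Sall4, a zinc-finger factor, with 1089 and 1042 CPM against 237 and 239.9 (-2.16 ± 0.08).

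Of 14 formative and primed genes tested, which mark the step after the naive state, 10 were higher and 1 lower, with a median of 2.54. Foxd3 and Lef1, transcription factors of the forkhead and WNT pathways, were higher by 5.57 ± 0.29 and 3.77 ± 0.30. Some of these genes did not come back to the DMSO level. Zic5, a zinc-finger factor, had 1.501 and 0.907 CPM in PlaB, 8.25 and 11.1 in Dux KD PlaB and 63.7 and 63.1 in DMSO, so that it was higher than in PlaB (3.01 ± 0.36) and lower than in DMSO (-2.72 ± 0.25, adjusted p = 2.3e-09). Otx2, a homeobox factor of the formative state, lay above DMSO in PlaB and higher still with the knockdown. It had 24.2 and 25.7 CPM in PlaB, 53.7 and 54.1 in Dux KD PlaB and 7.09 and 8.99 in DMSO. Its change was 1.11 ± 0.14 against PlaB, or 0.95 and no longer called with RLE scaling, and 2.74 ± 0.16 against DMSO. Of 12 neural genes tested 4 were higher and 1 lower. The latter, named after its values were seen, was Pax3, a paired-box gene with 4 and 6 counts in PlaB against 0 and 1 with the knockdown, and its call ended with DESeq2, with no filter, with only the libraries compared, without PlaB replicate 2 and without Dux KD PlaB replicate 1. Sox1 was higher by 5.30 ± 0.42, with 0.194 and 0.136 CPM in PlaB, 5.60 and 7.83 in Dux KD PlaB and 5.16 and 4.11 in DMSO.

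**Figure D2:**
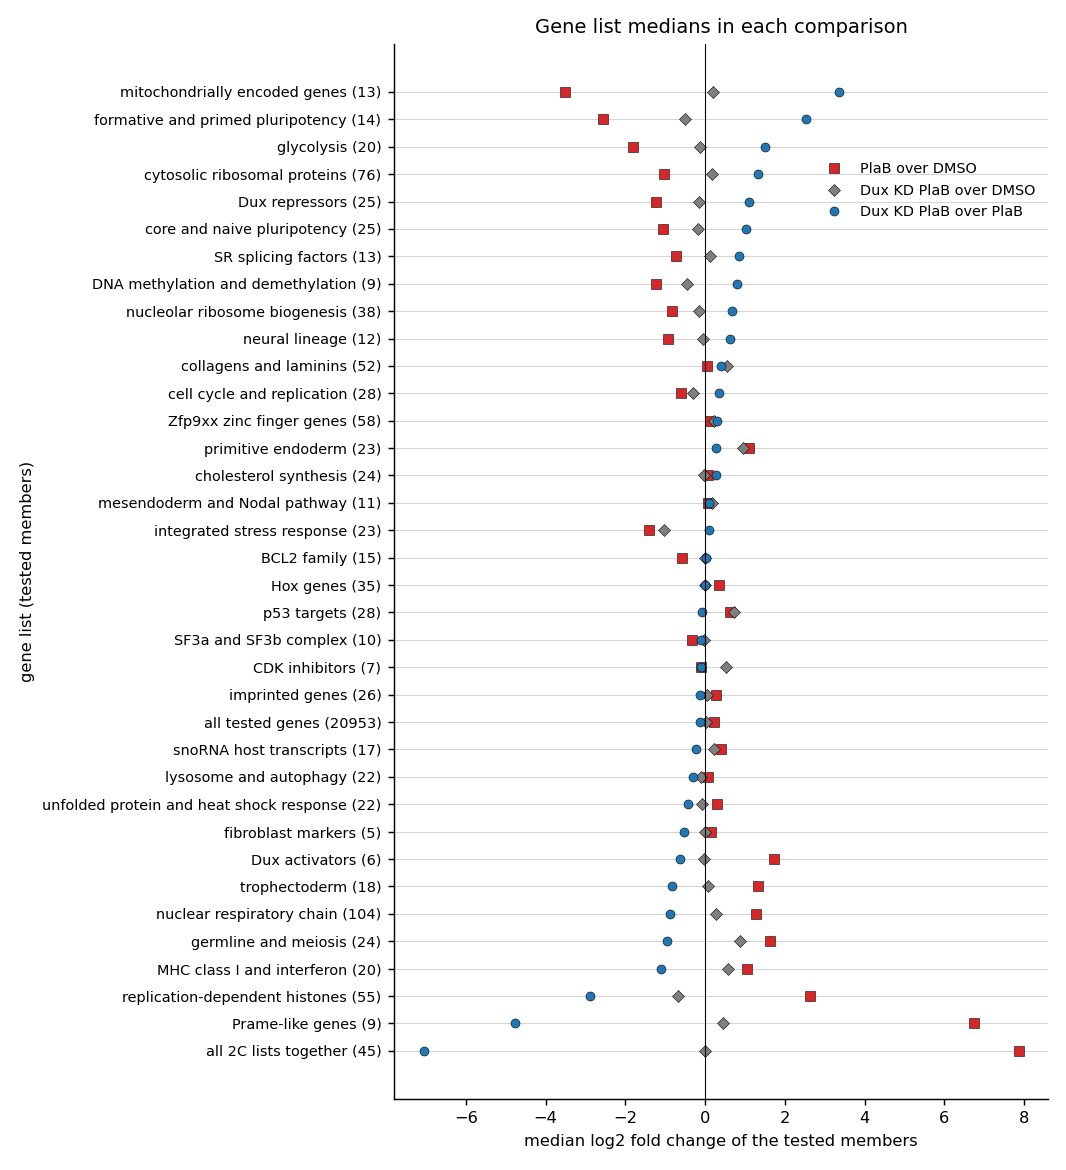
Median log2 fold change (x axis) over the tested members of each gene list (y axis) for Dux KD PlaB against PlaB, Dux KD PlaB against DMSO and PlaB against DMSO, 1 point per comparison. The comparisons share libraries. All 2C genes are drawn as 1 list, and their medians are -7.06 for Dux KD PlaB against PlaB, 0.00 for Dux KD PlaB against DMSO and 7.87 for PlaB against DMSO. Among the medians of Dux KD PlaB against PlaB that of the mitochondrially encoded genes is the highest (3.35).

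Extraembryonic lineage genes moved both ways. The primitive endoderm is the lineage that lines the blastocyst cavity. Of 23 of its genes tested, 8 were higher and 8 lower in Dux KD PlaB than in PlaB. Lamc1, a laminin subunit of basement membrane, was higher (35.8 and 33.5 against 403 and 406 CPM, 3.54 ± 0.08), and so was Col4a2, a type IV collagen (3.15 ± 0.18). Against DMSO, 9 of the 23 were higher and 1 lower, a larger share than the 7.53% of all genes that were higher. The summed level of the list was 864 and 890 CPM in DMSO, 323 and 338 in PlaB, 974 and 980 with the knockdown and 1361 and 1372 in untreated ESC, which thus lay above the knockdown libraries. Hnf4a, an endoderm transcription factor, had 1.42 and 1.59 CPM in DMSO, 1.55 and 1.36 in PlaB, and 16.9 and 15.2 with the knockdown (3.41 ± 0.21 against DMSO, adjusted p = 1.1e-12). Cubn, an endocytic receptor of visceral endoderm, had 0.227 and 0.329 CPM in DMSO, 2.03 and 1.77 in PlaB, and 14.38 and 15.4 with the knockdown (5.71 ± 0.33, adjusted p = 4.1e-13). At both genes the knockdown libraries lay above PlaB and above DMSO. SE KO PlaB had 18.4 and 17.2 CPM of Cubn. Dab2, an endocytic adaptor, had 1.98 and 1.10 CPM in DMSO, 8.33 and 9.52 in PlaB, and 15.4 and 17.0 with the knockdown, above DMSO (3.39 ± 0.21) and not called against PlaB (0.86 ± 0.16), though it reached the fold limit with no filter on low counts. The defining factors moved otherwise. Gata6 had 1.64 and 1.64 CPM in DMSO, 5.91 and 5.53 in PlaB, and 2.06 and 2.21 with the knockdown, and Sox17 had 0.283 and 0.110 CPM in DMSO, 3.48 and 3.22 in PlaB, and 0.354 and 1.02 with the knockdown. Both were lower with the knockdown than in PlaB (-1.42 ± 0.22 and -2.28 ± 0.49).

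Of 18 trophectoderm genes tested, 4 were higher and 8 lower. Krt8 encodes a keratin of simple epithelia and had 299 and 304 CPM in PlaB, 11.5 and 11.8 in Dux KD PlaB and 10.7 and 8.99 in DMSO (-4.70 ± 0.19, adjusted p = 6.1e-18). Its partner keratin Krt18 had 129 and 134 CPM in PlaB, 6.78 and 7.41 in Dux KD PlaB and 6.35 and 6.52 in DMSO (-4.21 ± 0.20, adjusted p = 1.1e-16). Fgfr2, a growth factor receptor, was also lower (-2.97 ± 0.24). Tead4, a transcription factor of the lineage, was higher (2.39 ± 0.20). Of 11 mesendoderm genes 3 were higher and 4 lower, among the latter Lefty1, a secreted antagonist of the TGF-beta family (-2.22 ± 0.15). Of 35 Hox genes 2 were higher and 9 lower, with a median of 0.00.

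SF3a and SF3b are the complexes of the U2 particle, and the latter holds PlaB. Of their 10 genes, 3 were higher (30%) and 2 lower (20%), beside 26.1% and 28.8% of all genes. Sf3b1, whose product together with that of Phf5a forms the pocket that holds PlaB, had 483 and 466 CPM in PlaB, 951 and 955 in Dux KD PlaB and 732 and 734 in DMSO (1.01 ± 0.08, adjusted p = 9.8e-12). Phf5a was lower (-1.07 ± 0.10). Both were close to the fold limit, with 0.85 for Sf3b1 under RLE scaling, 0.98 for it without PlaB replicate 2 and -0.97 for Phf5a without PlaB replicate 1. Sf3a2 was higher, from 8.91 and 8.53 to 90.3 and 92.3 CPM (3.39 ± 0.16), and Sf3b5 was lower, from 202 and 202 to 50.3 and 52.8 CPM (-1.97 ± 0.10). Calls in both directions were thus found among these subunits, at shares near those of all genes. None of the 10 was called between Dux KD PlaB and DMSO by edgeR or by DESeq2, and 6 had an unadjusted p under 0.05 there.

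SR proteins are RNA-binding factors that guide splice-site choice. Of 13 SR genes 5 were higher and 1 lower, with a median of 0.85, and none was called against DMSO by edgeR or by DESeq2, where 4 had an unadjusted p under 0.05. Srsf1 had 32.4 and 40.5 CPM in PlaB, 826 and 821 in Dux KD PlaB and 765 and 744 in DMSO (4.50 ± 0.10, adjusted p = 1.4e-23). Srsf2 and Srsf9 were higher by 3.71 ± 0.10 and 3.82 ± 0.12. Host transcripts of small nucleolar RNAs are spliced RNAs whose exons are mostly noncoding. Of 17 tested 6 were higher and 3 lower, with Snhg12 higher by 3.59 ± 0.18 and Snhg15 lower (-2.54 ± 0.14).

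Of 76 cytosolic ribosomal protein genes, 47 were higher and 2 lower, with a median of 1.32. They summed to 31910 and 28020 CPM in PlaB, 67800 and 67010 in Dux KD PlaB and 63010 and 61030 in DMSO. Rps2 had 87.2 and 74.4 CPM in PlaB, 2272 and 2227 in Dux KD PlaB and 2270 and 2149 in DMSO (4.80 ± 0.17). Rpl24 went the other way (-3.62 ± 0.27). Of 38 nucleolar genes of ribosome biogenesis 18 were higher and 3 lower. Against DMSO none was called by edgeR and 1 by DESeq2, and 22 had an unadjusted p under 0.05. Fbl (fibrillarin), the methyltransferase of ribosomal RNA, was higher by 3.53 ± 0.11, and Gar1, a pseudouridylation factor, by 3.91 ± 0.12.

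The respiratory chain was divided by the genome that encodes it. Of 13 protein genes of mitochondrial DNA 12 were higher and none lower in Dux KD PlaB than in PlaB, by edgeR and by DESeq2 and also at an unadjusted p under 0.05, with a median of 3.35. Their sum was 5912 and 6349 CPM in PlaB, 29390 and 28630 in Dux KD PlaB and 32030 and 32380 in DMSO. mt-Co2, a subunit of cytochrome c oxidase, had 2.13 and 1.86 CPM in PlaB, 633 and 766 in Dux KD PlaB and 229 and 334 in DMSO (8.45 ± 0.24, adjusted p = 2.3e-21). It was also above DMSO (1.31 ± 0.15), as were 5 other members. Of the nuclear genes of the chain, 104 were tested, and 4 were higher, 46 lower and 54 not called, with a median of -0.88, and their sum was 21460 and 19290 CPM in PlaB, 13200 and 13130 in Dux KD PlaB and 11720 and 11500 in DMSO. Ndufs5 and Ndufb9, both complex I subunits, were lower (-3.04 ± 0.19 and -3.03 ± 0.14). Ndufa4l2 was higher (3.24 ± 0.29). How well poly(A) selection took up the mitochondrial RNAs in each group was not tested.

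Of 20 glycolysis genes 12 were higher and none lower, the latter by edgeR, by DESeq2 and at an unadjusted p under 0.05, with a median of 1.49. Their sum was 8361 and 8235 CPM in PlaB, 16940 and 16720 in Dux KD PlaB and 18270 and 18130 in DMSO. Gapdh had 26.9 and 27.7 CPM in PlaB, 591 and 571 in Dux KD PlaB and 1133 and 907 in DMSO (4.41 ± 0.20, adjusted p = 7.1e-17). Pdk1, a kinase that restrains pyruvate dehydrogenase, had 41.8 and 44.0 CPM in PlaB, 524 and 524 in Dux KD PlaB and 612 and 615 in DMSO (3.61 ± 0.08), and Hk1, a hexokinase, was higher by 3.19 ± 0.14. The knockdown libraries lay between PlaB and DMSO at Gapdh and Pdk1. Slc2a1, the glucose transporter GLUT1, was the only member called against DMSO, with 261 and 271 CPM in PlaB, 419 and 422 in Dux KD PlaB and 1037 and 1023 in DMSO (-1.29 ± 0.14 against DMSO).

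The messenger RNAs of replication-dependent histone genes normally end in a stem-loop in place of a poly(A) tail, so that a poly(A) library counts the tailed ones. Of 55 tested 43 were lower and 1 higher, with a median of -2.88. Their sum was 328 and 332 CPM in PlaB, 33.4 and 29.6 in Dux KD PlaB and 37.8 and 38.6 in DMSO. H1f5, a linker histone gene, had 40.7 and 62.9 CPM in PlaB, 0.295 and 0.119 in Dux KD PlaB and 1.42 and 1.21 in DMSO (-7.92 ± 0.45, adjusted p = 5.7e-15). H2ac8 had 85.2 and 77.1 CPM in PlaB, 1.12 and 0.956 in Dux KD PlaB and 1.19 and 1.53 in DMSO (-6.28 ± 0.22). The knockdown libraries were as low as DMSO in sum. Against DMSO, 7 members were lower (12.7%) and 1 higher (1.82%), beside 4.14% and 7.53% of all genes.

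The p53 pathway answers DNA damage and other stress, and the summed level of its targets lay between DMSO and PlaB with the knockdown. Of 28 p53 targets, 9 were higher and 6 lower in Dux KD PlaB than in PlaB. Against DMSO 9 were higher (32.1%) and 1 lower (3.57%), beside 7.53% and 4.14% of all genes. Their sum was 1798 and 1776 CPM in DMSO, 3642 and 3619 in Dux KD PlaB and 4884 and 5098 in PlaB. It was 2577 and 2551 in untreated ESC and 3114 and 3140 in Dux KD RA, which had no PlaB. Mdm2, the ubiquitin ligase that limits p53, had 71.3 and 65.5 CPM in DMSO, 244 and 239.7 in Dux KD PlaB and 1342 and 1445 in PlaB (-2.53 ± 0.09 against PlaB and 1.82 ± 0.10 against DMSO, adjusted p = 6.4e-19 and 7.2e-14). Cdkn1a (p21), the cell cycle inhibitor, had 74.3 and 72.9 CPM in DMSO, 123 and 127 in Dux KD PlaB and 499 and 495 in PlaB (-1.99 ± 0.12 against PlaB) and was not called against DMSO (0.76 ± 0.12). The knockdown libraries lay between the other groups at both genes.

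Other p53 targets did not follow Cdkn1a. Ccng1 (cyclin G1) had 137 and 138 CPM in DMSO, 407 and 410.1 in Dux KD PlaB and 453 and 524 in PlaB, so that it was higher than in DMSO (1.57 ± 0.12, adjusted p = 1.8e-10) and not called against PlaB (-0.26 ± 0.12). Trp53inp1, which encodes a nuclear cofactor of p53, had 125 and 122 CPM in DMSO, 605 and 593 in Dux KD PlaB and 340.4 and 409 in PlaB (2.28 ± 0.13 against DMSO). Plk2, a polo-like kinase, had 6.92 and 9.15 CPM in DMSO, 70.5 and 71.8 in Dux KD PlaB and 363 and 373 in PlaB, and Btg2, an antiproliferative gene, had 34.2 and 31.1 CPM in DMSO, 179.7 and 179 in Dux KD PlaB and 317 and 289 in PlaB, so that both lay between the other groups. Phlda3, an inhibitor of AKT signalling, had 23.8 and 23.0 CPM in DMSO, 82.2 and 84.2 in Dux KD PlaB and 19.02 and 18.0 in PlaB, above both (2.17 ± 0.12 against PlaB and 1.83 ± 0.12 against DMSO). Ak1, an adenylate kinase, had 28.7 and 29.9 CPM in DMSO, 104 and 103 in Dux KD PlaB and 90.0 and 98.4 in PlaB, level with PlaB. Bbc3 (PUMA), a proapoptotic BH3-only gene, had 15.5 and 17.3 CPM in DMSO, 29.2 and 31.6 in Dux KD PlaB and 3.29 and 3.45 in PlaB and was higher than in PlaB (3.17 ± 0.16). Zmat3, an RNA-binding zinc-finger gene, was higher than in PlaB by 2.55 ± 0.08, and Fas, a death receptor gene, was lower (-2.88 ± 0.35).

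**Figure D3:**
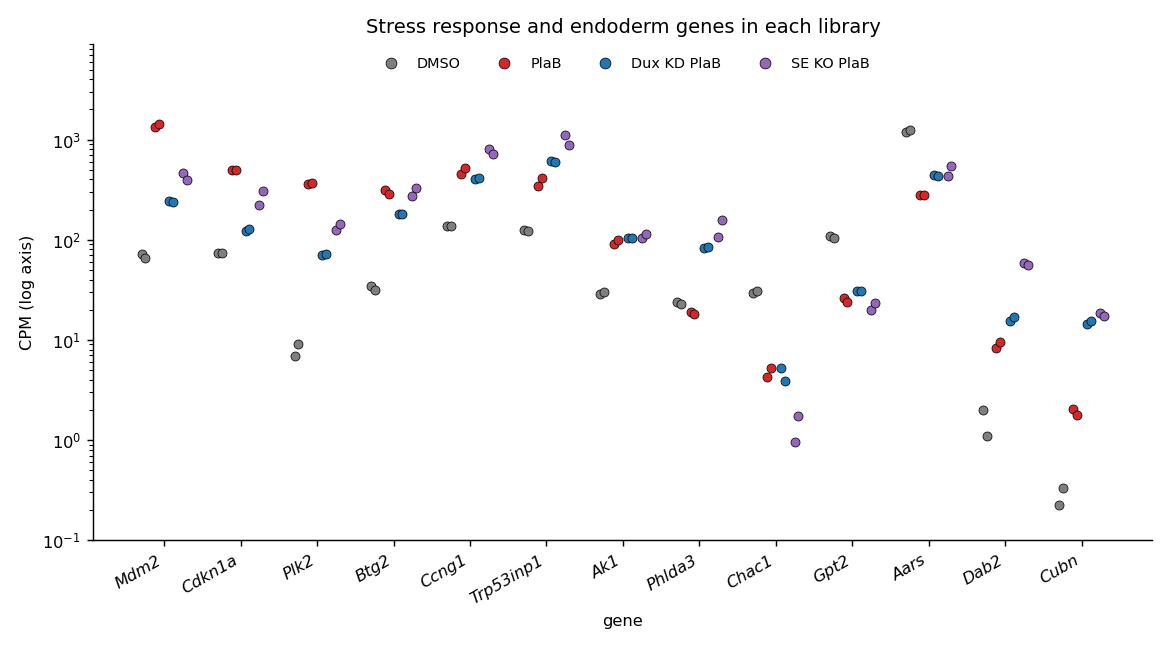
CPM (log axis) of stress response and endoderm genes, 1 point per library, for DMSO, PlaB, Dux KD PlaB and SE KO PlaB. The Dux KD PlaB points of Mdm2 (244 and 239.7 CPM) lie between DMSO (71.3 and 65.5) and PlaB (1342 and 1445), those of Cubn lie above both of these groups, and those of Chac1 (5.19 and 3.88) lie with PlaB (4.26 and 5.21) and under DMSO (29.5 and 30.4).

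The integrated stress response is the program of the transcription factor ATF4, which raises amino acid synthesis and transport. Of its 23 genes 7 were higher and 5 lower in Dux KD PlaB than in PlaB. Against DMSO 1 was higher and 14 were lower, with a median of -1.04, where 4.14% of all genes were lower. DMSO had the highest sum of this list among the groups, 5167 and 5252 CPM, beside 4186 and 4321 in ESC, 3385 and 3196 in PlaB, and 2851 and 2842 with the knockdown. Groups without PlaB were also low, with 2238 and 2361 CPM in RA and 2379 and 2397 in Zscan4 OE. In PlaB 3 were higher and 13 lower than in DMSO, with a median of -1.42. Slc7a5, an amino acid transporter subunit, had 547 and 555 CPM in DMSO, 6.54 and 7.39 in PlaB, and 264 and 278 with the knockdown (5.28 ± 0.14 against PlaB and -1.02 ± 0.10 against DMSO). Stc2, a secreted glycoprotein gene, had 42.0 and 40.7 CPM in DMSO, 1.02 and 0.590 in PlaB, and 21.2 and 19.96 with the knockdown (4.68 ± 0.24 against PlaB). Chac1, which encodes a glutathione-degrading enzyme, had 29.5 and 30.4 CPM in DMSO, 4.26 and 5.21 in PlaB, and 5.19 and 3.88 with the knockdown (-2.72 ± 0.19 against DMSO, adjusted p = 1.4e-11). Aars, the alanyl-tRNA synthetase gene, had 1185 and 1245 CPM in DMSO, 279.9 and 282 in PlaB, and 439 and 429.6 with the knockdown (-1.48 ± 0.09, adjusted p = 9.9e-13), and Gpt2, an alanine aminotransferase gene, had 108 and 105 CPM in DMSO, 26.1 and 24.1 in PlaB, and 31.1 and 30.6 with the knockdown. At Chac1, Aars and Gpt2 the knockdown libraries thus stayed under DMSO, and at Slc7a5 and Stc2 they lay far above PlaB but still under DMSO.

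Of 22 genes of the unfolded protein and heat shock responses 4 were higher and 6 lower. Hspa1a, an inducible HSP70, had 16.8 and 25.8 CPM in PlaB, 0.412 and 0.418 in Dux KD PlaB and 1.02 and 1.75 in DMSO (-5.66 ± 0.36). Herpud1, of endoplasmic reticulum degradation, had 124 and 115 CPM in PlaB, 12.3 and 12.7 in Dux KD PlaB and 35.8 and 36.3 in DMSO (-3.26 ± 0.12), under DMSO as well (-1.53 ± 0.12). Hyou1 and Calr, both chaperones of the endoplasmic reticulum, were higher by 3.85 ± 0.09 and 2.54 ± 0.12. Of 22 lysosome and autophagy genes 4 were higher and 4 lower. Map1lc3b (LC3B) and Sqstm1 (p62), both autophagosome proteins, fell with the knockdown (-2.59 ± 0.11 and -2.35 ± 0.12). Map1lc3b had 887 and 808 CPM in PlaB against 142 and 140.2 in the knockdown. Tfeb, the transcription factor of lysosomal genes, was higher (2.45 ± 0.18).

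Of 15 BCL2 family genes 7 were higher and 4 lower. Bak1, a pore-forming proapoptotic member, had 2.08 and 1.68 CPM in PlaB, 45.7 and 47.3 in Dux KD PlaB and 69.2 and 78.9 in DMSO (4.63 ± 0.16, adjusted p = 1.6e-19). Bmf, a BH3-only gene, was higher by 4.41 ± 0.16. Bcl2l2, an antiapoptotic member, was higher by 3.96 ± 0.24. Of 28 cell cycle and replication genes 7 were higher (25%, or 4 genes with RLE scaling, library size only or DESeq2) and 4 lower (14.3%), shares at or under those of all genes, and 17 were not called. Mki67 had 56.5 and 57.0 CPM in PlaB, 518 and 501 in Dux KD PlaB and 749 and 752 in DMSO (3.17 ± 0.09), and Ccne2 (cyclin E2) was lower (-1.74 ± 0.14). Of 7 CDK inhibitors 3 were higher and 3 lower. Cdkn1b (p27) had 4.65 and 7.75 CPM in PlaB, 102 and 98.9 in Dux KD PlaB and 84.8 and 85.9 in DMSO (4.01 ± 0.16). Cdkn2a had 0.968 and 1.18 CPM in PlaB, 8.19 and 7.77 in Dux KD PlaB and 1.02 and 1.92 in DMSO and was higher than in both PlaB (2.88 ± 0.28) and DMSO (2.43 ± 0.27).

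Of 24 germline and meiosis genes 3 were higher and 10 lower than in PlaB. Against DMSO 8 were higher (33.3%) and 1 lower (4.17%), beside 7.53% and 4.14% of all genes. Tex101, of germ cell surfaces, had 23.9 and 25.5 CPM in PlaB, 0.589 and 0.478 in Dux KD PlaB and 0.454 and 0.0548 in DMSO (-5.52 ± 0.38). Tex19.1, a repressor of retrotransposons, had 284 and 272 CPM in PlaB, 28.1 and 27.1 in Dux KD PlaB and 4.42 and 4.38 in DMSO, lower than in PlaB (-3.33 ± 0.14) and higher than in DMSO (2.65 ± 0.18, adjusted p = 1.0e-11). Stra8, a gene of meiotic entry, had 46.8 and 41.5 CPM in PlaB, 1.35 and 1.49 in Dux KD PlaB and 18.9 and 20.1 in DMSO, lower than in both (-4.95 ± 0.20 and -3.77 ± 0.22). The germline genes thus did not share 1 pattern. Of 20 genes of antigen presentation and the interferon response tested, 2 were higher and 9 lower. Tap1 and Tap2, the peptide transporter subunits, were lower (-1.78 ± 0.16 and -3.36 ± 0.41), and Irf1, an interferon regulatory factor, was higher by 1.54 ± 0.13.

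Of 26 imprinted genes tested 5 were higher and 7 lower. Peg10, a retrotransposon-derived gene, had 5.08 and 6.62 CPM in PlaB, 352 and 354 in Dux KD PlaB and 1012 and 1031 in DMSO (5.91 ± 0.21 against PlaB and -1.53 ± 0.15 against DMSO). Kcnq1ot1, a long nuclear RNA without introns, had 109 and 122 CPM in PlaB, 4.77 and 4.42 in Dux KD PlaB and 2.95 and 3.01 in DMSO (-4.65 ± 0.27). Of 9 genes of DNA methylation 4 were higher and 1 lower. Dnmt1, the maintenance methyltransferase, was higher by 2.11 ± 0.07, and Dnmt3l, a cofactor of the de novo methyltransferases, had 36.8 and 40.5 CPM in PlaB, 189 and 192 in Dux KD PlaB and 58.5 and 56.2 in DMSO, above PlaB (2.30 ± 0.14) and above DMSO (1.73 ± 0.14). Of 24 genes of cholesterol synthesis 5 were higher and 1 lower, with Srebf2, its transcription factor, higher by 2.67 ± 0.10, and Fdps lower (-1.83 ± 0.36). Of 52 collagen and laminin genes 16 were higher and 10 lower, led by Lamc1, Col4a2 and Col5a1 (2.78 ± 0.14). Of 58 zinc-finger genes named Zfp9xx 10 were higher and 7 lower, with a median of 0.30, and Zfp988 was higher by 2.18 ± 0.26.

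**Figure D4:**
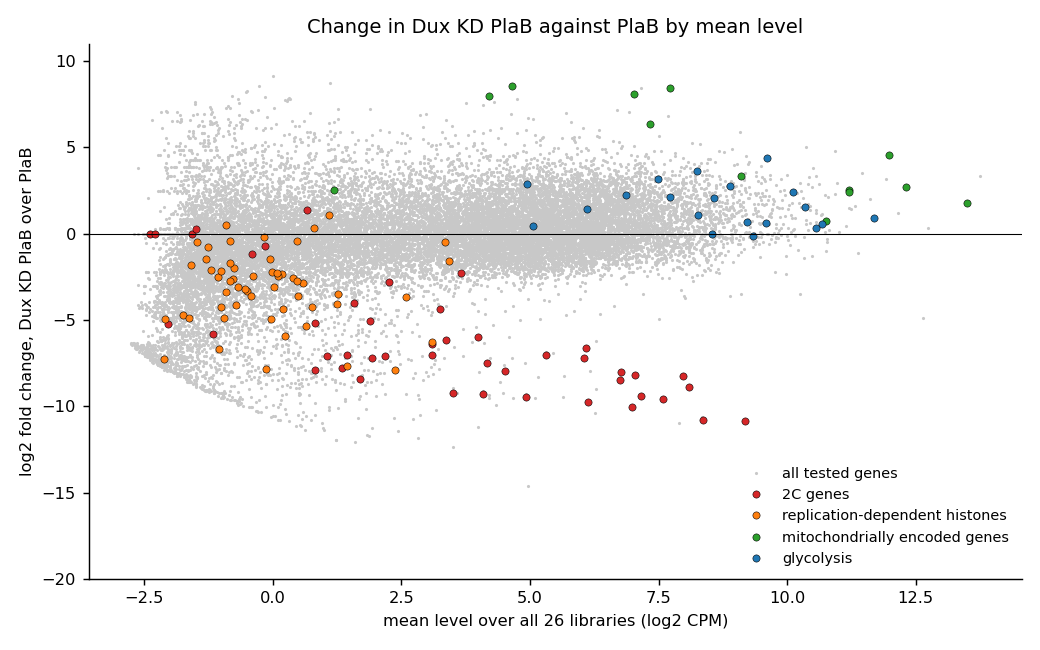
Log2 fold change of Dux KD PlaB against PlaB (y axis) against average log2 CPM over all libraries (x axis), 1 point per tested gene, with 2C, replication-dependent histone, mitochondrially encoded and glycolysis genes in colour. Most 2C genes lie far below 0 (median -7.06), and the mitochondrially encoded genes lie above it (median 3.35).

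Outside the lists, the rule named the 10 steepest rises and the 10 steepest falls among genes with a mean log2 CPM of at least 3 over all 26 libraries. A gene can pass this limit through the groups where it is high. Kdm4dl, 1 of the falls, had a mean of 43.4 CPM in PlaB and 0.148 in Dux KD PlaB. Chmp4b, a subunit of the membrane-cutting ESCRT-III complex, had 13 and 19 counts in PlaB against 1917 and 1788 in Dux KD PlaB (112 and 115 CPM in DMSO). H1f10, a linker histone gene, had 3 and 0 counts in PlaB against 269 and 251, at least 109.7-fold higher with the knockdown. Zbtb12, Tmem259, Islr2, Rps2-ps10, Rbmxl2, Pcdh1, Fignl2 and AC159819.1 completed the rises, with fitted log2 fold changes between 6.47 and 7.58. All 10 had at most 19 counts in each PlaB library. Of the falls, the 3 largest were the Zscan4 copies Zscan4-ps2, Zscan4-ps3 and Zscan4-ps1 (-10.99, -10.60 and -10.39), which add to the family described above. Abcb5, an ABC transporter gene, had 905 and 925 counts in PlaB, 0 and 1 in Dux KD PlaB and 1 and 4 in DMSO, at least 241-fold lower with the knockdown. Bhmt, a methyltransferase of the methionine cycle, had 43.9 and 46.4 CPM against 0.236 and 0.239 (-7.53 ± 0.31), and Eif4a3l1, a copy of a gene of the exon junction complex, 172 and 159 against 0.589 and 0.717 (-7.97 ± 0.22). AA623943, Kdm4dl, BB287469 and BC080695 were the other falls, between -7.86 and -8.94.

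Gene structure went with direction. Genes with a single exon were lower more often than higher in Dux KD PlaB against PlaB, 39.5% against 25.7% of 3499. Among 7837 genes with 10 or more exons 18.2% were lower and 33.1% higher. Of the single-exon genes 1010 were at or under 3 counts in both Dux KD PlaB libraries, as were 486 with 10 or more exons. The median log2 fold change was -0.57 with a single exon, -0.56 with 2 to 4, -0.41 with 5 to 9 and 0.31 with 10 or more. Exon number goes with gene type, and within protein-coding genes the single-exon ones did not stand out, with 32.6% lower and 31.5% higher of 485, whereas those with 10 or more exons still had 33.4% higher and 17.8% lower of 7593. Multi-exon genes were also divided into 3 equal parts by exon length. In the shortest part (up to 2830 bases) 41.2% were lower and 14.1% higher, and in the longest part (over 5379 bases) 15.2% and 37.3%. PlaB against DMSO, which shares the PlaB libraries, had 45.7% higher and 15.5% lower in the shortest part and 17.5% and 39.2% in the longest.

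By annotated type (GENCODE M21), transcripts to be experimentally verified (TEC) leaned most to the lower side, with 57.9% of 751 lower and 11.9% higher and a median of -2.45. Unprocessed pseudogenes followed, with 45.5% lower and 11.8% higher of 246, then antisense genes, with 43.9% lower and 13.4% higher of 747, and lincRNA genes, with 38.2% and 17.6% of 773. Many of these genes were at or under 3 counts in both Dux KD PlaB libraries. They were 361 TEC genes, 110 unprocessed pseudogenes and 249 antisense genes, beside 2966 of all 20953 tested genes. Such a gene passed the filter on low counts through other groups and could hardly be called higher. With such counts set to the floor, the TEC median was -1.84. The part of this in the shares was not tested. The sources used here do not say that counting used strand, so reads of an antisense gene and its partner cannot be told apart. Processed pseudogenes, intronless copies of spliced genes, were near balance against PlaB (32.6% higher and 31.0% lower of 1498). Against DMSO 21.4% of them were higher in Dux KD PlaB and 1.80% lower, where 7.53% of all genes were higher.

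**Figure D5:**
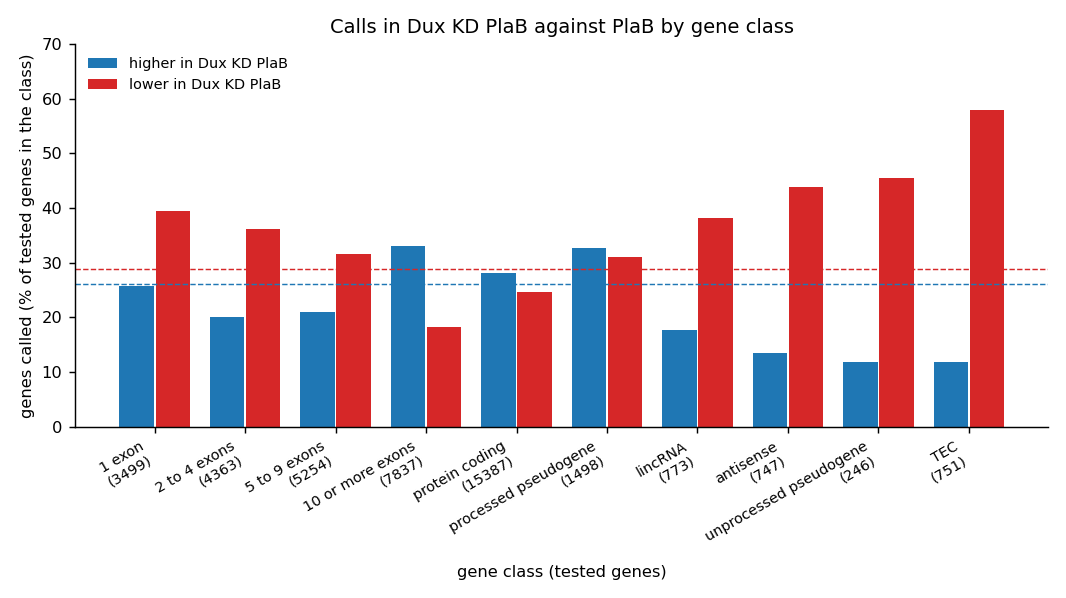
Percentage of tested genes called higher and lower in Dux KD PlaB against PlaB (y axis), by gene class with the number tested (x axis). Dashed lines give the share over all tested genes (26.1% higher and 28.8% lower). Bars for genes called lower are longest for TEC genes (57.9%), and bars for genes called higher are, among the 10 classes drawn, longest for genes with 10 or more exons (33.1%) and processed pseudogenes (32.6%).

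SE KO PlaB and ESC share no library with the comparison of Dux KD PlaB with PlaB. They differ in both the super-enhancer knockout and PlaB, and since SE KO cells without an inducer are not among the groups, the parts of the knockout and of the drug cannot be told apart. In SE KO PlaB 2769 genes (13.2%) were higher and 1468 (7.01%) lower than in ESC, or 20.2% in all. Relative to sampling noise, the SE KO PlaB replicates differed most of all groups (chi-square per degree of freedom 30.2, beside 6.19 in PlaB). Of the 2769, 1466 (52.9%) were lower and 302 (10.9%) higher in Dux KD PlaB than in PlaB, with a median of -1.42. Of the 1468, 697 (47.5%) were higher and 173 (11.8%) lower, with a median of 0.94. Among the other 16716 genes 26.7% were higher and 26.3% lower. Beside the other genes, a larger share of the genes called in SE KO PlaB against ESC was called in the opposite direction in Dux KD PlaB against PlaB, and this difference in shares has no test. SE KO PlaB itself stood 246 from PlaB and 147 from ESC on the distance scale above.

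The knockdown was tested in 2 other inductions, and the differences between its effects were tested directly. The effect in PlaB differed from that in RA at 10928 genes (52.2%) and from that in Zscan4 OE at 10314 (49.2%). Among the 45 2C genes, the effect of the knockdown was lower in PlaB than in RA at 36. Not all of these were lower with the knockdown in RA, where the Tdpoz genes summed to 1.85 and 1.26 CPM without and 3.33 and 3.89 with it. Against Zscan4 OE the effect differed at 19, a smaller share than over all genes. Of these 19, 18 had the lower effect in PlaB and 1, Gpr63, had the higher effect in PlaB. With RA the 2C sum was 1796 and 1512 CPM without and 1039 and 1046 with the knockdown. With Zscan4 OE it was 959 and 975 CPM without and 34.3 and 39.9 with the knockdown, where the treatment label of the knockdown libraries reads "no". The starting levels differed, since PlaB held 14900 and 14960 CPM, and the part of this in the differences was not tested. The log2 fold change of Zscan4c with the knockdown in PlaB was -10.80 ± 0.15, and its effect in PlaB minus that in RA was -10.37 ± 0.18 (adjusted p = 1.1e-24).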

How the data were processed

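Bulk poly(A) RNA-seq of R1 mESCs was analysed. The authors deposited unnormalized gene-level read counts for 55291 genes in 26 libraries of 13 groups. The submitters' processing notes name FastQC, Trimmomatic, STAR, featureCounts, DESeq2 and the mm10 build; the strand setting and the treatment of multi-mapping reads are not given in the sources used here. Totals ranged from 14401452 to 39402840 reads.

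From the counts, CPM and tests were computed in R 4.3.3 with edgeR 4.0.16 (TMM, filterByExpr, quasi-likelihood F-test, 1 model of all 26 libraries, 20953 genes kept, prior count 0.125, Benjamini-Hochberg adjustment over all genes). Genes were called at an adjusted p under 0.05 and a log2 fold change of at least 1 in size. The common biological coefficient of variation was 0.0833. Distances used log2 CPM with a prior count of 2. Replicates differed beyond sampling noise (chi-square per degree of freedom 6.19 in PlaB and 1.75 in Dux KD PlaB), so each library counted as 1. It was 30.2 in SE KO PlaB and 26.1 in Dux KD Zscan4 OE, the highest of all groups. On simulated counts for the Dux KD PlaB comparison (18322 genes, 200 of them shifted by 2 on the log2 scale, dispersion 0.02) 98.5% were recovered with 2 false calls. No other gene differed between groups there. The simulation therefore cannot say how scaling or false calls behave in the data, where 54.9% of genes were called.

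The 42 gene lists and the comparisons were chosen with earlier results of these data known. Per list, the text names up to 4 called members with the largest change and at least 5 CPM in either group, and outside the lists the 10 largest rises and falls without overlap at a mean log2 CPM of at least 3. Members of the lists named beside these, mainly for their change against DMSO or as cell type markers, were chosen after their values were seen, as were the classes by exon number and annotated type (GENCODE M21; 52905 of 53292 genes named there have the same start and end). The value of 1 list member is not reported here. Fold bounds used a floor of 3 counts per library. The SE after ± comes from the fit and covers the spread between libraries. Floors and fold bounds cover counting error only. Alternatives were RLE or library-size scaling, no filter, DESeq2 1.42.0, only the groups compared, the replicate block, no fold limit and leaving out each replicate.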

Additional observations from a re-analysis of the deposited data

Results flagged for a closer look

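The effect of the knockdown differed between inductions by a direct test of the difference (an interaction term in the edgeR model). The effect in PlaB differed from that in RA at 10928 genes (52.2%) and from that in Zscan4 OE at 10314 genes (49.2%). Of the 45 2C genes tested it differed at 36 and at 19, the latter a smaller share than over all genes. The 2C levels without the knockdown differed between inductions, and the part of this was not tested. The treatment label of the Dux KD Zscan4 OE libraries reads "no".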

How the results depend on the processing

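Depth and 2 libraries per group limit statements on low counts, and near-identical copies limit those on single genes of a family. In Dux KD PlaB against PlaB, the 5468 genes called higher and 6041 called lower became 4972 and 6675 with RLE scaling, 4854 and 6840 with library size only, and 4898 and 6256 with DESeq2. The median of all genes moved from -0.14 to -0.29, -0.33 and -0.29. Of 11509 calls, 11013, 10895 and 10681 were shared with these settings. Leaving out 1 library gave 5295 to 5404 higher and 5510 to 5757 lower. Same-numbered libraries did not deviate together (r = 0.000783), and the replicate block gave 5453 and 6002 calls, of which 11443 were shared, and left the 2C genes at 39 lower and 1 higher. With no fold limit, Dux KD PlaB against DMSO had 3705 genes higher and 3571 lower, and SE KO PlaB against ESC 5162 and 5013. With library size only, SE KO PlaB had 943 genes lower than ESC. The cause was not tested. The 1 2C gene called higher, Gpr63, became 0 with RLE scaling, library size only, DESeq2 and only the libraries compared. Leaving out 1 library gave 0 to 1, and moved the 2C median between -7.79 and -6.92 and Duxf3 between -10.41 and -7.06. Medians of the mesendoderm, integrated stress response and BCL2 lists changed sign with RLE scaling (-0.06, -0.07 and -0.12). Of the named genes that were not called against PlaB, Ak1 changed sign with RLE scaling (-0.02), DESeq2 (-0.02) and library size only (-0.07), and Chac1 with no filter (0.08), without PlaB replicate 2 (0.09) and without Dux KD PlaB replicate 2 (0.13). Over lists and settings, 142 list medians moved by more than their SD over pairs of single libraries, and 278 did not. Of the counts of calls, 83 moved by more than 1.5 times or to or from 0, and 841 did not. Among them, collagen and laminin genes called lower became 6 without PlaB replicate 2 or Dux KD PlaB replicate 2, Zfp9xx genes called lower became 11 with library size only, and the 1 histone gene called higher became 0 with RLE scaling, library size only and DESeq2.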
